A study of Mus musculus with 8 samples.

Results

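The genes of DNA replication and mitosis were followed in lung tissue from wild type mice and from mice transgenic for DDAH1, which received phosphate-buffered saline (PBS) or house dust mite extract (HDM), the allergen of this asthma model. The members are 40 mouse genes of S phase and mitosis, listed by symbol and found in the count table through their Entrez identifiers. All 40 were among the 23469 genes of the table. They were divided by role into chromatin, replication, nucleotide synthesis, transcription, cyclins, mitotic kinases, the anaphase-promoting complex, the spindle and cytokinesis. All mice were C57BL/6, and their ages are not given in the sources used here. The 4 groups were wild type mice with PBS (WT PBS), wild type mice with HDM (WT HDM), DDAH1-transgenic mice with PBS (TG PBS) and DDAH1-transgenic mice with HDM (TG HDM). HDM was instilled into the trachea at 100 µg in 50 µl PBS, 3 times a week over 3 weeks, and the lungs were taken 24 hours after the last instillation. DDAH1 is an enzyme that degrades asymmetric dimethylarginine, an inhibitor of nitric oxide synthases, and the promoter that drives the transgene is not given in the sources used here. Lung RNA of 4 mice was pooled per group and read as 2 libraries, so that every SD, standard error and p-value below rests on the spread between 2 libraries of 1 pool and covers no variation between mice.

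A dividing cell copies its DNA in S phase and separates the copies in mitosis, and most genes of these phases are transcribed in waves that follow the cycle. E2F factors act on genes of S phase. The DREAM and MuvB complexes, with Mybl2 and Foxm1, act on genes of mitosis through a promoter element named CHR. The CCAAT box is a separate promoter element and is counted below as well. In the adult lung few cells divide, and in an allergic lung lymphocytes, macrophages and epithelial cells can all enter the cycle. The messenger RNA of a whole lung does not tell which cells it comes from, and more dividing cells and more RNA per dividing cell cannot be told apart in these values.

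Promoters are shown for members called higher with HDM (below) and for others that were not. They are shown because CHR, CCAAT and E2F letters are shared features that the list did not use. RefSeq sequences upstream of the start (build GRCm38.p6) were at hand for 33 of the 40 members. The 120 bases before the start are printed in the direction of the gene, in lower case, with motif letters of either strand in capitals. The motifs were CHR (TTTGAA as well as its variant TTCGAA), the CCAAT box, and E2F (any of TTTCCCGC, TTTGGCGC, TTTCGCGC and TTTGCCGC), and motifs may overlap. The promoters are those of Mki67 (chr7:135716380-135716499, minus strand), Top2a (chr11:99024190-99024309, minus), Cdk1 (chr10:69352913-69353032, minus), Ccnb1 (chr13:100786487-100786606, minus), Mcm6 (chr1:128359706-128359825, minus), Pcna (chr2:132253181-132253300, minus), E2f1 (chr2:154569427-154569546, minus) and Birc5 (chr11:117849117-117849236, plus).
Mki67: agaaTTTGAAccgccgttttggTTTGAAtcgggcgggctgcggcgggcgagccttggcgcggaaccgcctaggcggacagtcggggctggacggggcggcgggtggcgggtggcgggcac
Top2a: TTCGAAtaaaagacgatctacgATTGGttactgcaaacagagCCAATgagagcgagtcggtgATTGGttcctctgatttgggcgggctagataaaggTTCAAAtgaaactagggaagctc
Cdk1: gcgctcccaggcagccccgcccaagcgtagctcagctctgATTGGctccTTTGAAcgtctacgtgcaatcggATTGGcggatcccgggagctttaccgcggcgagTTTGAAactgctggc
Ccnb1: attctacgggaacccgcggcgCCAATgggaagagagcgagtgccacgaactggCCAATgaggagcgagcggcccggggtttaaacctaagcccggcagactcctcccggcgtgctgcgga
Mcm6: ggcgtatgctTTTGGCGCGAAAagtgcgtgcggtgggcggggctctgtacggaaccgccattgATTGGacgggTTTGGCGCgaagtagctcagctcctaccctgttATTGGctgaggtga
Pcna: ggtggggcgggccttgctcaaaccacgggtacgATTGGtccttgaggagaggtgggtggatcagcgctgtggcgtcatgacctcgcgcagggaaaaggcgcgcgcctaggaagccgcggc
E2f1: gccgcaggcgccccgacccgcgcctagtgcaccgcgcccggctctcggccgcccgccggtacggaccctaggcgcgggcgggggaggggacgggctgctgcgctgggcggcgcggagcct
Birc5: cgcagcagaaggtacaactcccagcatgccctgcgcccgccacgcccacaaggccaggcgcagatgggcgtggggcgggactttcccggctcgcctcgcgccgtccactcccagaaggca

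In the 250 bases before the start, CCAAT was present in 26 of the 33 members (78.8%) and in 37.5% of all 27025 genes with a RefSeq promoter. CHR letters were present in 13 members (39.4%) and in 19.6% of all genes. E2F letters were present in 5 members (15.2%) and in 2.16% of all genes. Among the 20 members of mitotic and chromatin roles, 10 held CHR and 18 held CCAAT. Among the 13 members of replication, nucleotide synthesis and transcription, 3 held CHR, 8 held CCAAT and 4 held E2F letters. All 13 members with CHR letters also held CCAAT. Of the 18 members with a promoter that were called higher with HDM in either genotype (below), 7 held CHR and 16 held CCAAT. Of the 15 called in neither, 6 held CHR and 10 held CCAAT. Members not called were not necessarily unchanged, as 38 and 39 of the 40 fold changes were above 0 in the respective genotypes. A match is a description of the letters in this window and not a binding site.

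The deposited values are read counts in coding regions, with 5694928 to 11929374 counts per library, the smallest being TG HDM library 1. Levels are given as CPM, counts relative to library size, on one TMM scale of all 8 libraries. Surfactant and other lung epithelial markers were abundant in every library (summed level 21915 CPM or more), but their sum was lower with HDM in both genotypes (below). The targeted gene Ddah1 stood at 47.7 and 34.3 CPM in WT PBS, 76.9 and 53.8 in TG PBS, 43.1 and 44.7 in WT HDM, and 34.9 and 33.4 in TG HDM, so that the libraries labelled TG were the higher ones under PBS and the lower ones under HDM. Xist, transcribed from the inactive X chromosome of females, lay between 11.3 and 20.8 CPM in the PBS libraries and between 2048 and 3040 CPM in the HDM libraries. The Y-linked gene Ddx3y lay between 58.7 and 69.0 CPM with PBS and had 2 or 3 counts in each HDM library. HDM and the sex of the pooled mice therefore cannot be told apart in either genotype, and this touches every HDM comparison below.

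The 40 genes together were about 2-fold more abundant after HDM in both genotypes. Their summed level was 659 and 545 CPM in WT PBS, 475 and 486 CPM in TG PBS, 1328 and 1237 CPM in WT HDM, and 1216 and 1159 CPM in TG HDM. The HDM libraries did not overlap the PBS libraries, and within each treatment the TG libraries were the lower ones. The ratio of the mean summed levels was 2.13 for WT HDM over WT PBS, 2.47 for TG HDM over TG PBS, 0.798 for TG PBS over WT PBS, and 0.926 for TG HDM over WT HDM. The ribosomal RNA precursor Rn45s, took 8.58% and 9.37% of the counts in TG HDM and 14.8% to 21.8% in the other 6 libraries, and the log2 fold change followed transcript length in TG HDM over TG PBS (Spearman rho of -0.331 across genes). Their part in these ratios was not tested. With library sizes free of ribosomal RNA and haemoglobin the same 12 and 17 members were called in the tests below. TMM scaled the libraries anew in that run, so that it could hardly change the calls. Counts of the members per library ran from 4600 to 14974, or 0.0409% to 0.143% of all counts. With PBS 4 or 5 members per library had fewer than 10 counts, and with HDM at most 1.

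**Figure D1:**
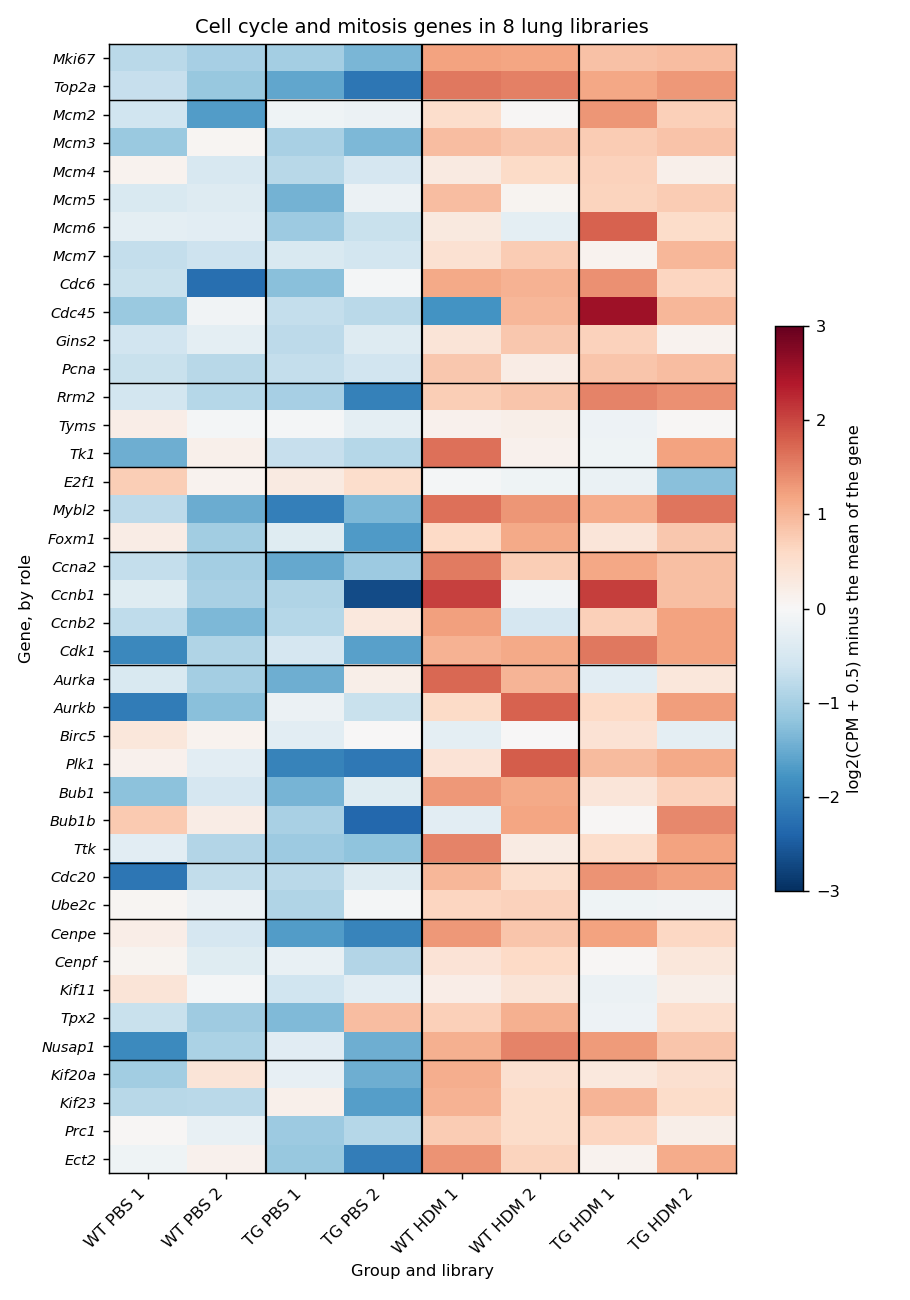
Level of each of the 40 genes in each of the 8 libraries, as log2(CPM + 0.5) minus the mean of the gene over the libraries, with genes in rows by role and libraries in columns by group. Red marks values above the mean of the gene and blue values below it, and most rows are blue in the 4 PBS libraries and red in the 4 HDM libraries, with E2f1, Birc5, Tyms and Kif11 as rows of little contrast or the opposite one.

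Which of the genes differed between HDM and PBS was tested separately in each genotype, with the quasi-likelihood test of edgeR, p-values being adjusted by Benjamini and Hochberg's method over all genes tested, at a threshold of 0.05. In wild type mice 12 of the 40 genes were higher with HDM and 0 were lower, where 6.74% of 15123 tested genes were called, 4.44% as higher and 2.3% as lower. In DDAH1-transgenic mice 17 of the 40 were higher and 0 were lower, where 13.8% of 15086 tested genes were called, 8.43% as higher and 5.35% as lower. At an unadjusted p under 0.05, 28 members were higher and 1 lower in wild type (11.5% and 8.47% of all genes), and 27 higher and 1 lower in DDAH1-transgenic mice (15.8% and 12%). All 40 passed the filter on low counts in both comparisons, but 7 in each did so only through the HDM libraries and could hardly differ in the other direction. They were Mybl2, Cdk1, Cdc6, Aurka and Ttk in both, with Aurkb and Cdc20 in wild type and Ccnb1 and Plk1 in DDAH1-transgenic mice. Of the 33 members that reached the minimum in both PBS libraries, 9 were higher in wild type (4.2% of all such genes) and 13 in DDAH1-transgenic mice (8.03%). The median log2 fold change of the 40 genes was 1.37 in wild type and 1.59 in DDAH1-transgenic mice, and that of all tested genes was 0.02 and 0.03. The fold change was above 0 for 38 of the 40 genes in wild type (51.4% of all genes) and for 39 in DDAH1-transgenic mice (51.6%). Both HDM libraries lay above both PBS libraries for 32 genes in wild type (25% of all genes) and below them for 2 (24.7%), and in DDAH1-transgenic mice above them for 34 (28.8%) and below them for 1 (28%). These comparisons share no library. Mki67, Top2a, Pcna, Rrm2, Mybl2, Ccna2, Cdk1 and Nusap1 passed the threshold in both, 8 genes that make up 66.7% of the 12 and 47.1% of the 17, and 6 of them, without Mybl2 and Cdk1, had reached the minimum in the PBS libraries. Another 13 genes passed it in 1 genotype, and 19 in neither. The share of all tested genes that were higher in both genotypes is not given here, so the 8 stand without that baseline.

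**Figure D2:**
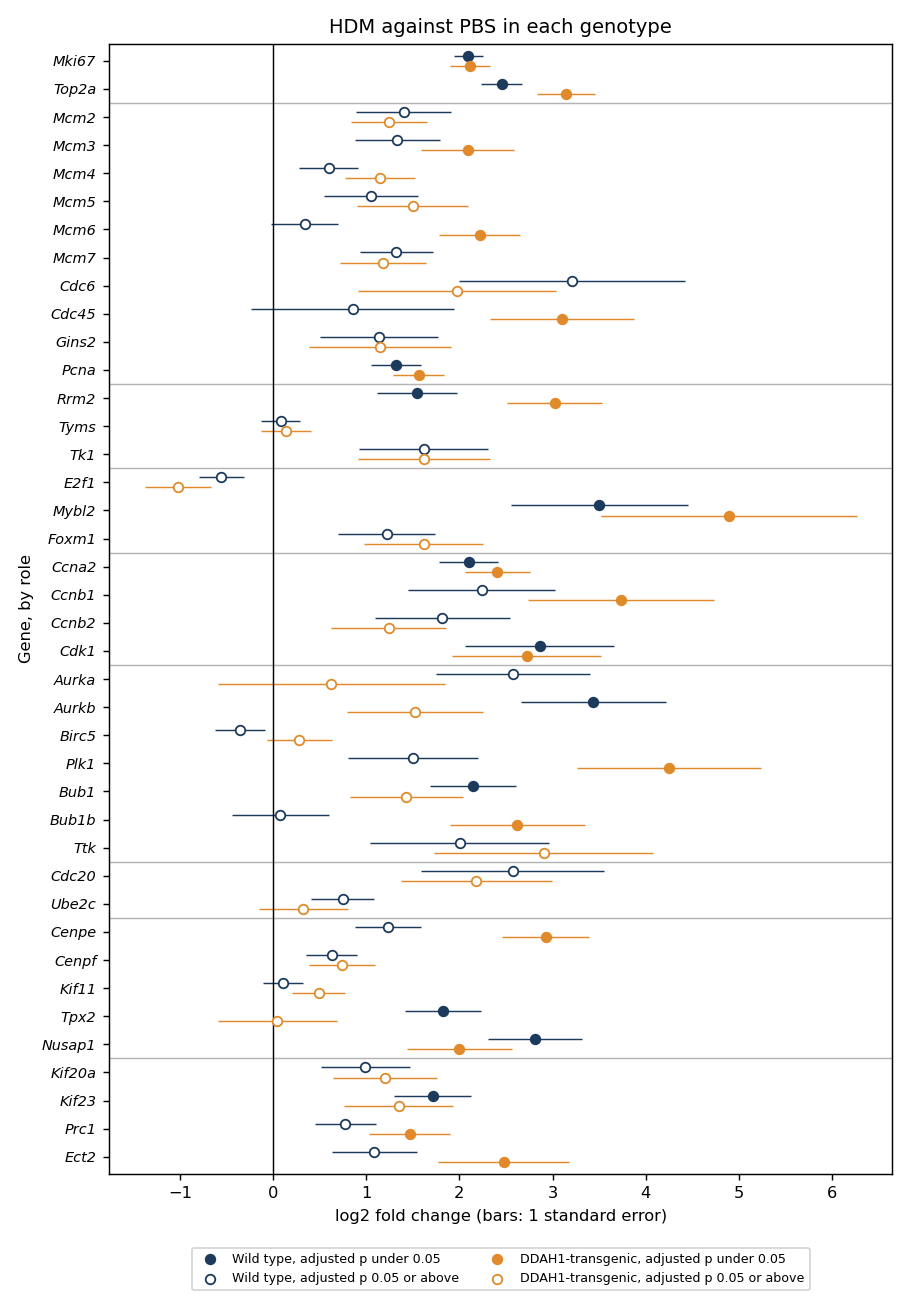
log2 fold change of HDM over PBS for each of the 40 genes, in wild type (dark blue) and DDAH1-transgenic mice (orange), with bars of 1 standard error; filled points have an adjusted p-value under 0.05. All but E2f1 and, in wild type, Birc5 lie right of 0, and all 12 and 17 filled points do; the fitted value of Mybl2 in DDAH1-transgenic mice rests on 3 counts in the PBS libraries.

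With HDM the most abundant member by CPM was Mki67, which encodes the Ki-67 protein that coats mitotic chromosomes and is the standard marker of cycling cells. Mki67 stood at 73.3 and 64.1 CPM in WT PBS, 63.3 and 49.7 in TG PBS, 296 and 291 in WT HDM, and 238 and 244 in TG HDM. The HDM libraries were all more than 3 times as high as any PBS library, and the transgenic libraries were below the wild type ones within each treatment. Mki67 rose with HDM by a log2 fold change of 2.09 ± 0.15 (SE, 2 libraries a group) in wild type (edgeR adjusted p = 8.78e-07) and by 2.11 ± 0.22 in DDAH1-transgenic mice (edgeR adjusted p = 9.26e-05). Top2a, the topoisomerase that untangles replicated DNA, stood at 26.4 and 19.3 CPM in WT PBS, 14.1 and 9.09 in TG PBS, 128 and 122 in WT HDM, and 96.3 and 105 in TG HDM. Again no HDM library overlapped a PBS library. Top2a rose by 2.45 ± 0.22 in wild type (edgeR adjusted p = 7.65e-06) and by 3.14 ± 0.31 in DDAH1-transgenic mice (edgeR adjusted p = 7.22e-05).

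Of the 10 replication genes, 1 passed the threshold in wild type and 4 in DDAH1-transgenic mice. Pcna, the sliding clamp of the DNA polymerases, passed in both. Pcna stood at 26.6 and 23.8 CPM in WT PBS, 25.8 and 28.5 in TG PBS, 75.8 and 50.0 in WT HDM, and 76.5 and 81.7 in TG HDM. The rise was 1.32 ± 0.27 in wild type (edgeR adjusted p = 0.00868) and 1.56 ± 0.27 in DDAH1-transgenic mice (edgeR adjusted p = 0.00305), and 19.1% of the stretches of 50 bases in Pcna transcripts also occur in transcripts of other genes, so that some of its reads are uncertain.

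The Mcm genes encode the 6 subunits of the replicative helicase. Mcm6 stood at 17.4 and 17.1 CPM in WT PBS, 26.4 and 17.3 in WT HDM, 9.78 and 13.3 in TG PBS, and 73.8 and 31.7 in TG HDM. TG HDM was thus higher than every other group, and its 2 libraries were further apart than those of any other group. Mcm6 rose by 2.22 ± 0.43 in DDAH1-transgenic mice (edgeR adjusted p = 0.00597), and its change in wild type was 0.34 ± 0.36 (edgeR adjusted p = 0.670). Mcm3 went from 5.29 and 3.91 CPM to 18.6 and 20.1 in DDAH1-transgenic mice, a rise of 2.09 ± 0.50, and from 4.72 and 11.2 to 21.1 and 19.3 in wild type, where its change of 1.34 ± 0.46 did not pass. For Mcm2, Mcm4, Mcm5 and Mcm7 the log2 fold changes lay between 0.60 (Mcm4) and 1.40 (Mcm2) in wild type and between 1.15 (Mcm4) and 1.50 (Mcm5) in DDAH1-transgenic mice, none past the threshold. Mcm7 shares 18.1% of its stretches with transcripts of other genes. The level of Cdc45, which joins the helicase at firing origins, was 1.50 and 1.37 CPM in TG PBS and 18.4 and 5.96 in TG HDM, a rise of 3.10 ± 0.77 (edgeR adjusted p = 0.0204). In wild type Cdc45 went from 1.00 and 2.53 CPM to 0.447 and 6.03, with overlapping libraries. The helicase loader Cdc6 (at most 5.69 CPM) and Gins2 of the GINS complex (at most 8.64 CPM) did not pass in either genotype.

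Of the 3 genes of nucleotide synthesis, Rrm2 rose in both genotypes. Rrm2, the S phase subunit of ribonucleotide reductase, stood at 7.13 and 5.63 CPM in WT PBS, 5.09 and 2.22 in TG PBS, 17.96 and 19.2 in WT HDM, and 30.4 and 28.3 in TG HDM. The rise was 1.54 ± 0.43 in wild type (edgeR adjusted p = 0.0471, and 0.0523 with an offset for transcript length) and 3.02 ± 0.51 in DDAH1-transgenic mice (edgeR adjusted p = 0.00239). Tyms, which makes thymidylate, was about as abundant in every group, with 65.8 and 55.7 CPM in WT PBS, 55.8 and 47.0 in TG PBS, 63.0 and 65.6 in WT HDM, and 51.8 and 59.5 in TG HDM. Its log2 fold change was 0.08 (95% interval -0.37 to 0.53) in wild type and 0.14 (-0.45 to 0.73) in DDAH1-transgenic mice. Tk1, the thymidine kinase of S phase, was uneven between the HDM libraries of a group, with 18.6 and 6.13 CPM in WT HDM and 5.09 and 13.5 in TG HDM. Its mean level was 3.09-fold higher with HDM in wild type and 3.03-fold higher in DDAH1-transgenic mice. The log2 fold change of 1.62 in each genotype did not pass.

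The 3 transcription factors went in different directions. Mybl2, the B-Myb of the MuvB complex, was at 7 and 3 counts in WT PBS and at 0 and 3 counts in TG PBS, and at 68 and 47 counts in WT HDM and 27 and 75 in TG HDM. It passed the threshold in wild type (3.50 ± 0.95, edgeR adjusted p = 0.0424) and in DDAH1-transgenic mice (edgeR adjusted p = 0.0352), where the ratio of its summed counts per depth was 33.8 (95% counting interval 11.2 to 167). In Mybl2 19.3% of the stretches occur in transcripts of other genes. Foxm1, the forkhead factor of the G2 phase, was at 9.75 and 3.75 CPM in WT PBS, 6.29 and 2.22 in TG PBS, 12.7 and 18.7 in WT HDM, and 10.8 and 14.9 in TG HDM, and its changes of 1.22 ± 0.52 and 1.62 ± 0.64 did not pass. E2f1, an activator of the E2F family, was the only member whose HDM libraries lay below the PBS libraries in both genotypes. It stood at 86.6 and 55.5 CPM in WT PBS, 62.3 and 74.5 in TG PBS, 49.9 and 46.8 in WT HDM, and 45.1 and 21.4 in TG HDM. The log2 fold change of E2f1 was -0.55 ± 0.24 in wild type (edgeR adjusted p = 0.224) and -1.02 ± 0.36 in DDAH1-transgenic mice (edgeR adjusted p = 0.0828). The latter passed the threshold with DESeq2 (adjusted p = 0.0348), without the filter on low counts (edgeR adjusted p = 0.00975) and with all 8 libraries in the fit (edgeR adjusted p = 0.0278). The E2f1 gene overlaps Necab3, and the counting is not stated to use strand.

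Cyclins and Cdk1 had the largest ratio of summed levels after Mki67 and Top2a, 4.39 in wild type and 4.89 in DDAH1-transgenic mice. Ccna2, cyclin A2 of S phase and G2, stood at 15.9 and 12.9 CPM in WT PBS, 8.88 and 12.2 in TG PBS, 78.6 and 44.5 in WT HDM, and 59.4 and 50.3 in TG HDM. It rose by 2.10 ± 0.32 in wild type (edgeR adjusted p = 0.000888) and by 2.41 ± 0.35 in DDAH1-transgenic mice (edgeR adjusted p = 0.00098). The level of Cdk1, the kinase that drives entry into mitosis, was 0.502 and 1.55 CPM in WT PBS, 2.20 and 0.740 in TG PBS, 7.33 and 7.93 in WT HDM, and 10.9 and 8.28 in TG HDM. Cdk1 rose by 2.86 ± 0.80 and 2.72 ± 0.80 in the respective genotypes (edgeR adjusted p = 0.0467 and 0.0415). The B-type cyclins, its partners in mitosis, were uneven between libraries. Ccnb1 stood at 2.51 and 1.47 CPM in WT PBS, 1.60 and 0.106 in TG PBS, 15.6 and 3.11 in WT HDM, and 15.9 and 6.81 in TG HDM. The rise of Ccnb1 was 3.73 ± 1.00 in DDAH1-transgenic mice (edgeR adjusted p = 0.0284), where TG PBS library 2 held 1 count, and its change of 2.24 ± 0.79 in wild type did not pass (edgeR adjusted p = 0.119). For Ccnb1 23.4% of the stretches of 50 bases occur in transcripts of other genes, the highest share of the 40. Ccnb2 ranged from 1.96 to 14.3 CPM and passed in neither genotype.

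Among the 7 mitotic kinases and checkpoint genes the genotypes had no called gene in common. In wild type Aurkb and Bub1 rose. Aurkb, the kinase of the chromosomal passenger complex, was at 0.502 and 1.31 CPM in WT PBS and 5.90 and 14.3 in WT HDM (3.44 ± 0.78, edgeR adjusted p = 0.0161), and at 3.29 and 2.22 in TG PBS and 5.99 and 9.68 in TG HDM (1.53 ± 0.73, edgeR adjusted p = 0.197). Bub1, a kinase of the spindle checkpoint, was at 3.32 and 5.80 CPM in WT PBS and 21.5 and 19.2 in WT HDM (2.15 ± 0.46, edgeR adjusted p = 0.0115), and at 2.89 and 6.45 in TG PBS and 10.9 and 13.9 in TG HDM (1.43 ± 0.61). In DDAH1-transgenic mice Plk1 and Bub1b rose. Plk1, the polo-like kinase of mitosis, was at 4 and 3 counts (0.399 and 0.317 CPM) in TG PBS and 6.44 and 7.43 CPM in TG HDM (4.25 ± 0.99, edgeR adjusted p = 0.0148), and at 3.42 and 2.37 in WT PBS and 4.29 and 12.2 in WT HDM (1.50 ± 0.70). Bub1b, the BubR1 checkpoint protein, was at 3.89 and 1.16 CPM in TG PBS and 8.24 and 22.6 in TG HDM (2.62 ± 0.73, edgeR adjusted p = 0.0334), while in wild type its 14.3 and 9.47 CPM with PBS overlapped its 6.34 and 18.8 CPM with HDM. Both of these genes thus had their lowest values in TG PBS. Birc5 (survivin), the most abundant member per kilobase of coding sequence in WT PBS (99.6 CPM per kilobase), stood at 45.4 and 38.3 CPM in WT PBS, 28.4 and 36.1 in TG PBS, 29.2 and 36.2 in WT HDM, and 48.2 and 28.9 in TG HDM, with changes of -0.36 ± 0.27 and 0.28 ± 0.35. Aurka, the kinase of spindle poles (at most 7.68 CPM), and the checkpoint kinase Ttk (at most 5.45 CPM) did not pass.

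Neither gene of the anaphase-promoting complex passed. Its E2 enzyme Ube2c stood at 17.0 and 14.3 CPM in WT PBS, 8.48 and 15.7 in TG PBS, 25.6 and 26.8 in WT HDM, and 14.8 and 15.1 in TG HDM, with changes of 0.75 ± 0.33 and 0.33 ± 0.48. The wild type libraries were separated by treatment and the transgenic ones overlapped. Cdc20, its activator, went from 0.201 and 1.39 CPM to 5.72 and 4.02 in wild type and from 1.30 and 1.90 to 7.49 and 6.89 in DDAH1-transgenic mice (2.57 ± 0.98 and 2.18 ± 0.81), and 10.4% of its stretches occur elsewhere.

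Spindle and kinetochore genes were mixed. Nusap1, which bundles spindle microtubules, rose in both genotypes. Its level was 1.91 and 4.16 CPM in WT PBS, 6.59 and 2.75 in TG PBS, 18.2 and 24.8 in WT HDM, and 21.3 and 15.6 in TG HDM (2.81 ± 0.51, edgeR adjusted p = 0.00359, and 2.00 ± 0.57, edgeR adjusted p = 0.0363). Tpx2, a spindle assembly factor, rose in wild type from 7.43 and 5.47 to 20.1 and 25.6 CPM (1.82 ± 0.41, edgeR adjusted p = 0.0156). In DDAH1-transgenic mice the PBS libraries of Tpx2, at 4.49 and 23.1 CPM, enclosed the HDM libraries at 10.8 and 17.3 (0.05 ± 0.64). Cenpe, the kinetochore motor, rose in DDAH1-transgenic mice from 4.49 and 3.59 to 36.4 and 24.2 CPM (2.93 ± 0.46, edgeR adjusted p = 0.00178). In wild type Cenpe went from 17.8 and 10.9 to 39.3 and 27.9 CPM (1.23 ± 0.36, edgeR adjusted p = 0.0548). Kif11, the motor that separates the spindle poles, was abundant and changed little, at 78.8 and 57.2 CPM in WT PBS, 39.0 and 48.3 in TG PBS, 68.4 and 78.03 in WT HDM, and 53.2 and 67.6 in TG HDM (0.11, 95% interval -0.36 to 0.57, and 0.49, -0.12 to 1.10). Cenpf, a large kinetochore protein, ranged from 16.9 to 47.5 CPM and did not pass.

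Of the 4 cytokinesis genes, Kif23 rose in wild type and Prc1 and Ect2 rose in DDAH1-transgenic mice. Prc1, which bundles the microtubules of the midzone, stood at 18.1 and 15.1 CPM in WT PBS, 8.08 and 9.61 in TG PBS, 30.6 and 26.2 in WT HDM, and 28.002 and 20.1 in TG HDM (0.77 ± 0.33, edgeR adjusted p = 0.205, and 1.47 ± 0.43, edgeR adjusted p = 0.0436). All of its HDM libraries lay above all of its PBS libraries. Ect2, the exchange factor that activates RhoA at the furrow, was at 6.73 and 8.08 CPM in WT PBS, 3.09 and 1.37 in TG PBS, 19.6 and 11.95 in WT HDM, and 7.94 and 16.7 in TG HDM (1.09 ± 0.46, and 2.48 ± 0.70 with an edgeR adjusted p = 0.0367). Kif23, a motor of the midzone, went from 6.53 and 6.69 to 25.6 and 17.9 CPM in wild type (1.71 ± 0.41, edgeR adjusted p = 0.023) and from 13.6 and 3.49 to 24.9 and 17.9 in DDAH1-transgenic mice (1.35 ± 0.59). Kif20a, another midzone motor, ranged from 3.91 to 25.2 CPM and did not pass.

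**Figure D3:**
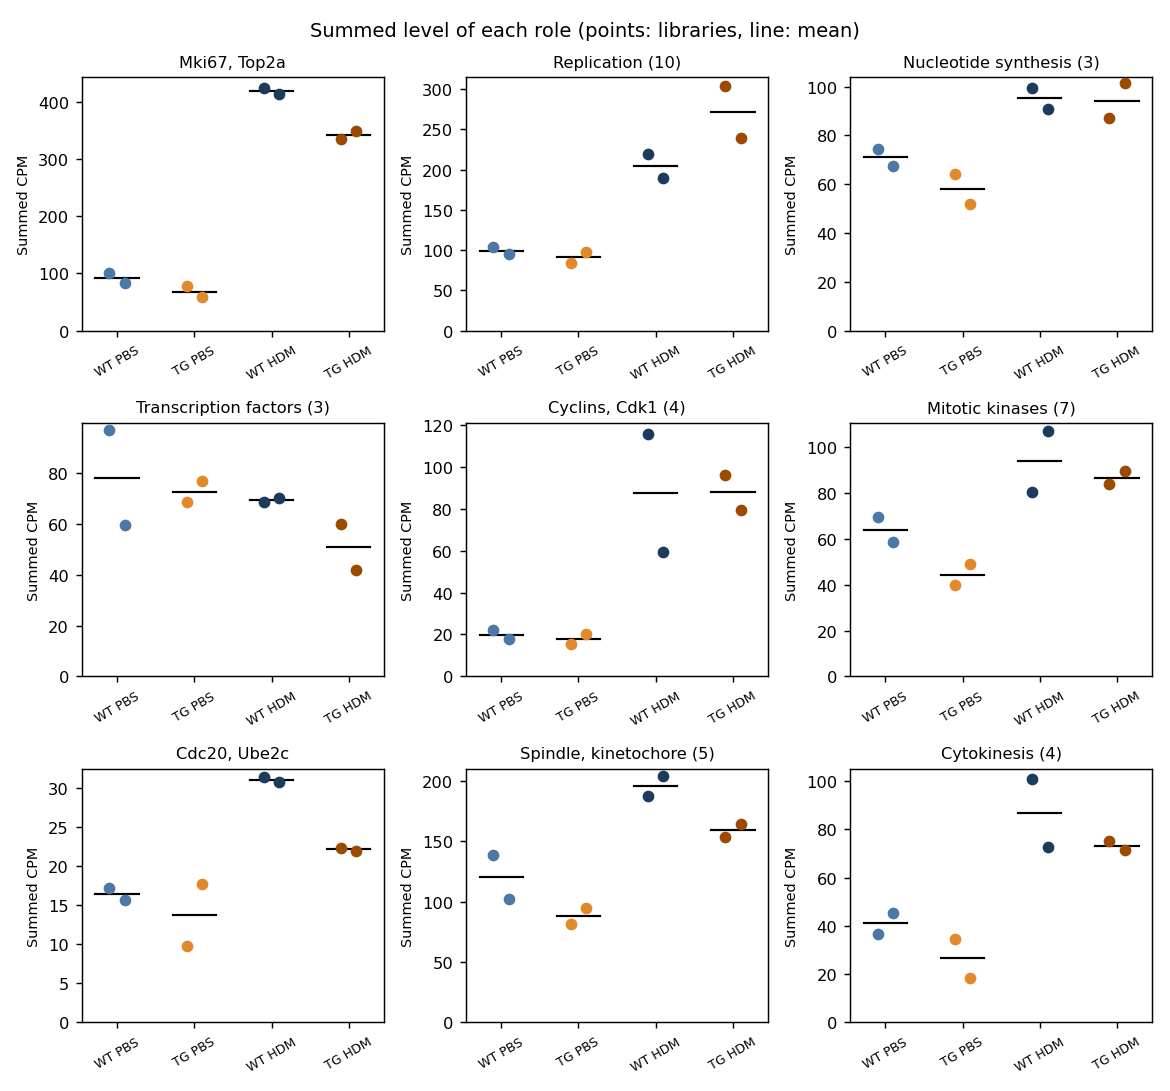
Summed CPM of the members of each role in each library (points) with the mean of the 2 libraries (line), by group, from 0. The largest ratios of HDM to PBS are those of Mki67 with Top2a and of the cyclins with Cdk1; the transcription factors, which are mostly E2f1, are not higher with HDM.

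E2f1, Kif11, Tyms and Birc5, singled out after their values were seen, were the most abundant members with PBS beside Mki67 and were not called higher with HDM. Together these 4 genes made up 40.1% of the summed level in WT PBS and 40.7% in TG PBS, against 17.0% in WT HDM and 15.8% in TG HDM. Their sum was 277 and 207 CPM in WT PBS, 186 and 206 in TG PBS, 210.5 and 227 in WT HDM, and 198 and 177 in TG HDM. The sum of the other 36 genes was 383 and 338 CPM in WT PBS, 290 and 280 in TG PBS, 1117 and 1010 in WT HDM, and 1018 and 982 in TG HDM. The ratio of HDM over PBS for these 36 was 2.95 in wild type and 3.51 in DDAH1-transgenic mice. Leaving out 4 genes whose mean sum was not higher with HDM makes this ratio higher by construction.

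The calls depended on single libraries to different degrees, as shown by leaving out each library in turn, the remaining library of that group being assumed to vary like the other group. In wild type, Mki67, Top2a, Pcna, Ccna2 and Nusap1 passed the threshold whichever library was left out. Without WT PBS library 1, Rrm2, Mybl2, Cdk1, Bub1 and Kif23 lost their calls (edgeR adjusted p between 0.0626 and 0.235), and 9 genes passed. Without WT PBS library 2, Rrm2, Mybl2, Tpx2 and Kif23 did (0.0907 to 0.255), and 9 genes passed. Without WT HDM library 1, Mybl2 and Kif23 did (0.0884 and 0.0577), and without WT HDM library 2, Rrm2 and Aurkb did (0.0556 and 0.0974), with 13 and 16 genes passing. With all 8 libraries in one fit 7 genes passed, and Rrm2, Mybl2, Cdk1, Tpx2 and Kif23 did not (0.0521 to 0.0992).

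In DDAH1-transgenic mice, Mki67, Top2a and Ccna2 passed whichever library was left out. Without TG PBS library 1 only 6 genes passed, namely Mki67, Top2a, Ccna2, Ccnb1, Cenpe and Rrm2, and the other 11 had edgeR adjusted p-values between 0.0686 and 0.217. Without TG PBS library 2 only Mki67, Top2a and Ccna2 passed, and the other 14 had edgeR adjusted p-values between 0.0559 and 0.234. Without TG HDM library 1, the smallest one, Ccnb1, Cdc45, Cdk1, Nusap1 and Prc1 lost their calls (0.114 to 0.289) and 14 genes passed, among them E2f1 as lower (-1.68, adjusted p = 0.000682). Without TG HDM library 2, Mybl2, Bub1b and Ect2 lost theirs (0.0861 to 0.253) and 16 genes passed. The fold changes stayed above 0 for all 12 and all 17 called genes in every alternative, and the widest range over these leave-outs apart from Mybl2 was that of Ccnb1, from 2.84 to 6.59.

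The TG and wild type pools were compared within each treatment, and no member passed the threshold. With 1 pool per group a difference could not be assigned to the transgene, and Ddah1 itself was lower in TG HDM than in WT HDM (above). With PBS, 38 members were tested and 0 were called, where 0.657% of 14926 genes were called (0.281% higher, 0.375% lower); Mybl2 and Ttk were too low to be tested. The fold change of TG PBS over WT PBS was below 0 for 25 of the 38 members (49.9% of all genes), with a median of -0.35 against 0.00 for all genes. At an unadjusted p under 0.05, 7 members were lower and 0 higher, Top2a, Bub1b, Plk1, Cenpe, Kif11, Prc1 and Ect2, where 5.23% of all genes were lower and 4.75% higher. Both TG PBS libraries lay below both WT PBS libraries for 13 members and above them for 3 (20.4% and 20% of all genes). Bub1b differed by -2.23 ± 0.64 (edgeR adjusted p = 0.156), Cenpe by -1.83 ± 0.52 (edgeR adjusted p = 0.149) and Plk1 by -2.98 ± 1.06 (edgeR adjusted p = 0.304), with the library values given above. DESeq2 called 0 members as well. Without the filter on low counts Bub1b and Cenpe were called lower (edgeR adjusted p = 0.0237 and 0.048), and without TG PBS library 1 they were called lower and Tpx2 higher. For Mki67 the difference was -0.29 (95% interval -0.76 to 0.17) and for Pcna 0.10 (-0.54 to 0.74).

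With HDM, all 40 members were tested and 0 were called, where 2.44% of 15191 genes were called (1.84% higher, 0.599% lower). Both TG HDM libraries lay above both WT HDM libraries for 6 members and below them for 10 (23.2% and 25% of all genes). The median of TG HDM over WT HDM was -0.12 against 0.01 for all genes, with 25 members below 0 (49.5% of all genes). This lean was absent with the length offset, and without WT HDM library 1, where 20 members were below 0 and 20 above in each case. At an unadjusted p under 0.05, 1 member was higher and 0 were lower (9.37% and 6.87% of all genes). It was Mcm6, at 1.31 ± 0.42 (edgeR adjusted p = 0.14), which passed with DESeq2 (adjusted p = 0.0406) and without the filter on low counts (edgeR adjusted p = 0.00597). Without TG HDM library 2, Mcm6 and Cdc45 passed, and without library 1 the value of Mcm6 was 0.56. The difference was -0.25 for Mki67 (95% interval -0.64 to 0.14), -0.27 for Top2a (-0.73 to 0.19), 0.37 for Pcna (-0.22 to 0.95) and 0.31 for Ccnb1 (-1.26 to 1.87).

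**Figure D4:**
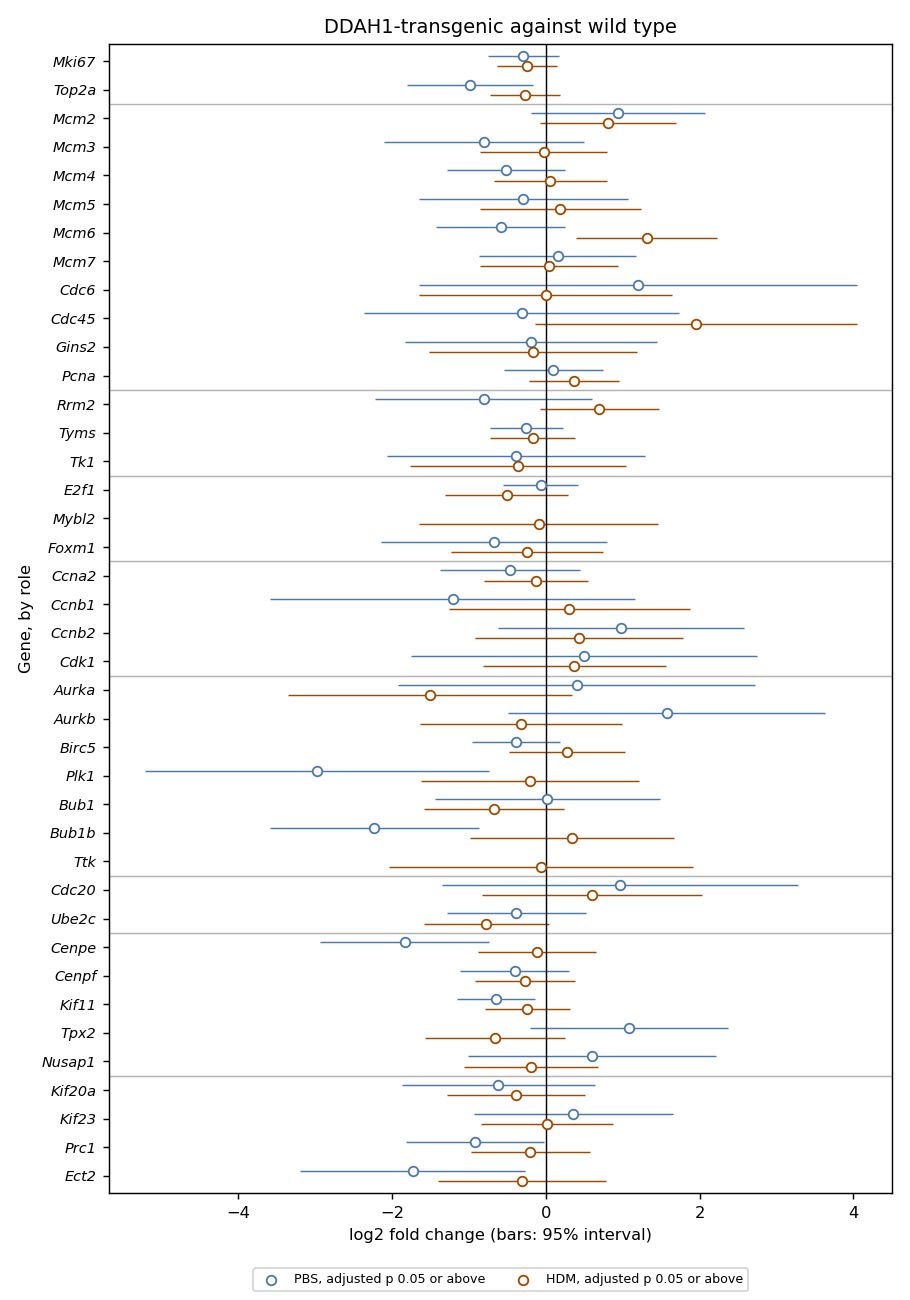
log2 fold change of DDAH1-transgenic over wild type mice for each of the 40 genes, with PBS (blue) and with HDM (brown), with bars for the 95% interval; no gene had an adjusted p-value under 0.05. Intervals that leave out 0 belong to 7 genes below 0 with PBS and to Mcm6 above 0 with HDM, and Mybl2 and Ttk have no point with PBS.

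The HDM effect was then compared between genotypes in one fit of all 8 libraries, as the HDM effect in DDAH1-transgenic mice minus that in wild type. Of the 40, 0 passed the threshold in edgeR, where 1.76% of 15868 genes did (1.05% above 0 and 0.706% below). The median of the 40 differences was 0.20 against 0.00 for all genes, and 23 were above 0 (50% of all genes). At an unadjusted p under 0.05, 5 members were above 0, Mcm6 (1.84 ± 0.56), Rrm2 (1.46 ± 0.64), Plk1 (2.73 ± 1.13), Bub1b (2.53 ± 0.92) and Cenpe (1.66 ± 0.56), and Tpx2 was below 0 (-1.79 ± 0.81), where 7.62% and 7.05% of all genes were. Their edgeR adjusted p-values lay between 0.112 and 0.31. Mcm6 passed with DESeq2 (adjusted p = 0.0453), and without the filter on low counts Mcm6 and Bub1b did (edgeR adjusted p = 0.0211 and 0.0421). For Mki67 the difference was 0.00 at an interval of -0.55 to 0.54. The genes called in 1 genotype alone were therefore not shown to differ between genotypes at this threshold.

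Other genes of the same processes, in lists drawn up beside the 40, were counted in the same tests. Of 18 further S phase genes tested in wild type, Pole and Clspn were higher with HDM. Of 19 tested in DDAH1-transgenic mice, those that were higher included Cdt1, Rrm1, Uhrf1, Slbp and Clspn. Cdt1, which licenses origins, went from 1.10 and 0.740 to 14.7 and 17.2 CPM (4.12 ± 0.65, edgeR adjusted p = 0.0018), and Uhrf1, which maintains DNA methylation, from 1.40 and 1.90 to 16.3 and 19.4 CPM (3.45 ± 0.58, edgeR adjusted p = 0.0025). Rrm1, the partner of Rrm2, went from 9.88 and 9.72 to 32.5 and 43.9 CPM (1.98 ± 0.37, edgeR adjusted p = 0.00456). Clspn of the replication checkpoint rose in wild type from 1.61 and 1.14 to 14.7 and 10.8 CPM (3.21 ± 0.62, edgeR adjusted p = 0.00556). Without TG PBS library 1 or 2 the call of Rrm1 was lost (edgeR adjusted p = 0.0766 and 0.0861), and without WT PBS library 2 that of Pole (0.279). The share of the S phase list called was 11.1% in wild type and 31.6% in DDAH1-transgenic mice, where 4.44% and 8.43% of all genes were higher. Cdt1 and Clspn did not reach the count minimum in both TG PBS libraries and were tested in DDAH1-transgenic mice only through HDM libraries. Shares of this list and of the lists below were not split by the group through which a gene passed the filter. The median log2 fold change of the S phase list was 1.17 in wild type and 1.69 in DDAH1-transgenic mice.

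Of 32 further mitosis genes, 7 were higher with HDM in wild type and 4 higher and 1 lower in DDAH1-transgenic mice, with medians of 1.30 and 1.39. The share of these genes called was 21.9% in wild type, where 4.44% of all genes were higher, and 15.6% in DDAH1-transgenic mice, where 13.8% of all genes were called in either direction. The condensin subunits Smc2 and Ncapd2 and the spindle pole gene Aspm were higher in both. Smc2 stood at 17.9 and 14.5 CPM in WT PBS, 13.3 and 12.4 in TG PBS, 44.8 and 55.6 in WT HDM, and 42.7 and 46.0 in TG HDM (1.63 ± 0.29 and 1.81 ± 0.34). In DDAH1-transgenic mice the call of Smc2 was lost without TG PBS library 1 (edgeR adjusted p = 0.0734) or 2 (0.0941), and those of Ncapd2 and Aspm without library 2 (0.115 and 0.149). The gene that was lower was Dlgap5, a spindle protein, at 88.6 and 113 CPM in TG PBS and 42.4 and 52.5 in TG HDM (-1.06 ± 0.26, edgeR adjusted p = 0.0182). Under HDM 2.44% of 15191 tested genes differed between genotypes, 1.84% as higher in TG HDM. Of these lists only Pttg1, securin, did (3.12% of the 32 mitosis genes). Pttg1 stood at 8.22 and 8.34 CPM in WT HDM and 21.9 and 37.2 in TG HDM (1.87 ± 0.43, edgeR adjusted p = 0.0421). That call was lost without either WT HDM library (edgeR adjusted p = 0.366 and 0.285), without TG HDM library 2 (0.108) and with an offset for transcript length (0.155).

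G1 genes and inhibitors of cyclin-dependent kinases moved less and in both directions. Of 8 G1 cyclins and kinases, 0 were called in wild type and Ccne1 and Cdk2 were higher with HDM in DDAH1-transgenic mice. Ccne1, cyclin E1, had 0 and 1 counts in TG PBS and 22 and 63 in TG HDM, a ratio per depth of 84.5 (95% counting interval 14.8 to 3377), and 23 and 1 counts in WT PBS. It could be tested only through its HDM libraries. The called share of this list was 25%, beside 8.43% of all genes. Ccnd1, cyclin D1, the abundant G1 cyclin, stood at 168 and 163 CPM in WT PBS, 165 and 160 in TG PBS, 195 and 178 in WT HDM, and 122 and 152 in TG HDM, and passed in none of the tests. Of 14 genes of the Rb, E2F, DREAM and Myc families, Myc alone was called (7.14% of the list, near the 8.43% of all genes), higher in DDAH1-transgenic mice, from 5.09 and 5.49 to 17.97 and 21.2 CPM (1.91 ± 0.48, edgeR adjusted p = 0.0219). The calls of Ccne1, Cdk2 and Myc were lost without TG PBS library 1, TG PBS library 2 or TG HDM library 2 (edgeR adjusted p between 0.0622 and 0.165), and that of Myc with the length offset (0.0712).

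With PBS 0.657% of 14926 tested genes differed between genotypes. Of these lists only Cdkn1a, the p21 inhibitor that halts the cycle, did (16.7% of the 6 inhibitors tested). It stood at 37.2 and 48.3 CPM in WT PBS, 85.6 and 102 in TG PBS, 61.7 and 66.3 in WT HDM, and 38.8 and 35.7 in TG HDM. The groups did not overlap in any pair other than WT PBS and TG HDM. Cdkn1a was higher in TG PBS than in WT PBS by 1.12 ± 0.22 (edgeR adjusted p = 0.0174) and fell with HDM in DDAH1-transgenic mice by 1.31 ± 0.26 on the log2 scale (edgeR adjusted p = 0.00634). In wild type its change with HDM was 0.58 ± 0.23 (edgeR adjusted p = 0.175), and under HDM the difference between genotypes was -0.74 ± 0.27 (edgeR adjusted p = 0.194). The difference of the HDM effects was -1.92 ± 0.34 (edgeR adjusted p = 0.0049). The call in PBS was lost without WT PBS library 1 (edgeR adjusted p = 0.19), and the call in DDAH1-transgenic mice without TG PBS library 1 (0.0734) or 2 (0.143). Cdkn1c, the p57 inhibitor, was at 29.8 and 22.6 CPM in TG PBS and 7.19 and 11.8 in TG HDM (-1.44 ± 0.43, edgeR adjusted p = 0.0458), and at 11.6 and 12.9 in WT PBS and 8.22 and 6.03 in WT HDM, and its call was lost without TG PBS library 1 (0.247), TG PBS library 2 (0.154) or TG HDM library 1 (0.127).

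**Figure D5:**
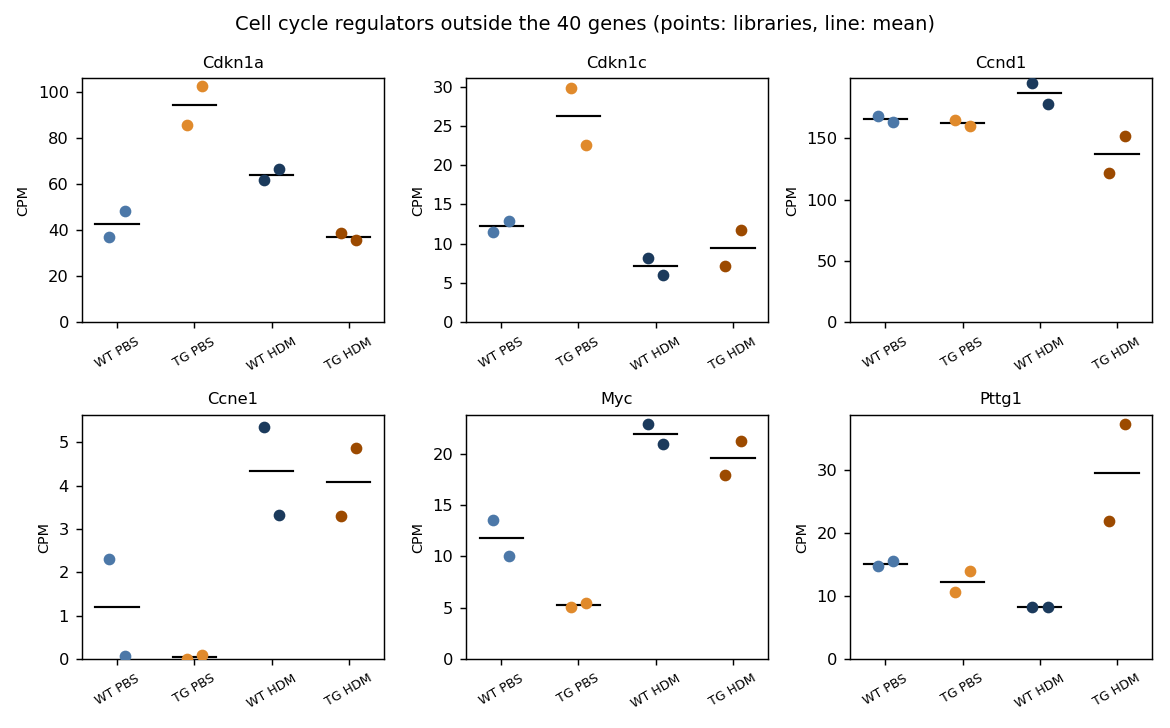
CPM of 6 cell cycle regulators outside the 40 genes in each library (points) with the mean of the 2 libraries (line), by group, from 0. Cdkn1a and Cdkn1c are highest in TG PBS, Myc is lowest there, Ccnd1 lies between 122 and 195 CPM in all libraries, and Pttg1 is highest in TG HDM.

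Markers of cell types that could hold dividing cells also moved with the groups, and their part in the results above was not tested. Summed B and plasma cell markers were at 269 to 306 CPM in WT PBS, 182 to 228 in TG PBS, 1133 to 1191 in WT HDM, and 2173 to 2303 in TG HDM, most of it Jchain. Macrophage markers were at 289 to 291 CPM in WT PBS, 270.0 to 304 in TG PBS, 715 to 804 in WT HDM, and 621 to 638 in TG HDM. General T cell markers were at 30.7 to 42.1, 23.8 to 29.0, 63.1 to 78.3 and 66.4 to 110.1 CPM in the same order. The sums of these lists were higher with HDM in both genotypes, as that of the 40 genes was. Of the markers tested, 1 of 7 macrophage and 1 of 5 T cell markers were lower with HDM in wild type. In DDAH1-transgenic mice 2 of 7 macrophage markers were lower. The other markers tested were higher. The ratio of sums in TG HDM over WT HDM was 1.93 for B and plasma cell markers. It was 1.25 for T cell markers, 0.829 for macrophage markers and 0.926 for the 40 genes. Lung epithelial markers were at 42129 to 49654 CPM in WT PBS, 50652 to 73170 in TG PBS, 22147 to 25797 in WT HDM, and 21915 to 30612 in TG HDM. The ratio of their sums with HDM over PBS was 0.522 in wild type and 0.424 in DDAH1-transgenic mice. Of the 8 epithelial markers, 3 were nevertheless higher with HDM in wild type and 2 in DDAH1-transgenic mice. Thymocyte markers were at 193 to 197 CPM in WT PBS, 71.2 to 78.2 in TG PBS, 104 to 132 in WT HDM, and 107 to 110.4 in TG HDM. Of these, Rag1, the recombinase of immature lymphocytes, had 189 and 371 counts in WT PBS and 0 to 7 counts in each of the other 6 libraries. Markers of erythroid progenitors were at 36.3 to 41.4 CPM in WT PBS, 49.0 to 70.5 in TG PBS, 14.7 to 25.7 in WT HDM and 21.0 to 22.3 in TG HDM. Klf1, which defines them, had 0 counts in the 4 wild type libraries, 3 and 76 in TG PBS and 0 and 1 in TG HDM. Markers of granulocyte progenitors were at or near 0, with Mpo, Ctsg and Ms4a3 at 0 in all 8 libraries.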

How the data were processed

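Lung RNA of 4 pooled mice per group was measured as 2 libraries in each of 4 groups. The authors amplified the RNA, read it for 50 cycles from one end, aligned it with TopHat to mm10 (GRCm38) and summed the reads in coding regions with ShortRead and custom R programs. The submitters' processing notes also name bcl2fastq, CASAVA 1.8 and DESeq, and other versions are not given in the sources used here. The deposited values are raw read counts per gene, of which 5694928 to 11929374 were found per library. Columns of samples other than these 8 were 0. Groups were taken from the labels. The 2 libraries of a pool have no label for separate cultures or animals, and p-values measure technical spread.

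Gene identifiers were matched to RefSeq GRCm38.p6 names for 23372 of 23469 genes, and coding lengths came from GENCODE M21. Each pair of groups was tested on its own 4 libraries with edgeR 4.0.16 (R 4.3.3, glmQLFit and glmQLFTest, TMM, filterByExpr with a count minimum of 10, adjusted p under 0.05 over all genes tested), and the interaction on all 8. With 2 against 2 libraries an exact permutation test of 1 gene cannot reach this threshold. The test was checked on simulated counts. The standard error is the log2 fold change divided by the square root of F.

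The members, gene lists and markers were chosen with earlier results of these data known. The genes given with all library values were Mki67, Top2a, Pcna, Ccnb1, the members called with the 3 smallest p-values in each direction, and the most abundant of each role; of other lists the called genes (at most 4 per list and comparison), Cdkn1a and Ccnd1. Values of further called members and of Klf1 and Rag1 were added after they were seen. In the lists, 3 markers had no match in the table, and 1 list gene is not reported here. Alternatives were RLE size factors, DESeq2 1.42.0, a block for the replicate number, no filter on low counts, all 8 libraries in one fit, library sizes without ribosomal RNA and haemoglobin, an offset for transcript length (loess span 0.5), and leaving out each library. Same-numbered libraries did not deviate together (correlations -0.01 to 0.04). Stretches of 50 bases shared between transcripts came from GENCODE M21, and intervals of counts cover counting error only.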

Additional observations from a re-analysis of the deposited data

Results flagged for a closer look

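Among the 40 genes and the other cell cycle lists, 1 gene, Cdkn1a, had HDM effects that differed between genotypes past the threshold. Of all 15868 genes tested, 1.76% did. For Cdkn1a the difference was -1.92 on the log2 scale (95% interval -2.64 to -1.20, edgeR adjusted p = 0.0049). Both TG PBS libraries (85.6 and 102 CPM) lay above both WT PBS libraries (37.2 and 48.3 CPM), and both TG HDM libraries (38.8 and 35.7 CPM) lay below both WT HDM libraries (61.7 and 66.3 CPM). Over the 8 fits that left out 1 library the value lay between -2.12 and -1.75.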

How the results depend on the processing

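All 12 and 17 members called higher with HDM kept their direction in every alternative run. With PBS, 2 members differed between genotypes without the low-count filter and 0 to 3 when 1 library was left out, with medians of -0.37 to -0.24. With HDM it was 1 member with DESeq2, without the filter and with the replicate block, and 0 to 2 when 1 library was left out, with medians of -0.15 to -0.024 and of -0.0064 with the length offset. For HDM in wild type 7 members passed with all 8 libraries in the fit, and 9 to 16 when 1 library was left out (medians 1.196 to 1.66). In DDAH1-transgenic mice 3 to 16 passed (medians 1.53 to 1.92). For the interaction 1 passed with DESeq2, 2 without the filter and 0 to 1 when 1 library was left out (medians 0.066 to 0.42, and 0.31 with the length offset). With the replicate block 0, 1, 13, 21 and 0 members passed in the order above, and Cdkn1a lost its call between genotypes with PBS (edgeR adjusted p = 0.0648), but the numbers are no pairing in the design.

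Values close to 0 changed sign, and the cause was not tested. Between genotypes under HDM, Mki67 was 0.093 with the length offset and Ccnb1 -0.44 to 1.88 when 1 library was left out. With HDM in wild type, Tyms was -0.045 to 0.21 and Kif11 -0.12 to 0.35. In DDAH1-transgenic mice Birc5 was -0.38 with the length offset and -0.16 to 0.60 with a library left out, and Ube2c -0.33 and -0.060 to 0.84. In the interaction Mki67 was 0.0020 with the block, 0.0030 with library sizes without ribosomal RNA and haemoglobin, 0.41 with the length offset and -0.16 to 0.19 with a library left out, and Pcna was -0.033 and -0.040 to 0.55. With library sizes without ribosomal RNA and haemoglobin the summed levels were 799 and 661 CPM in WT PBS, 573 and 586 in TG PBS, 1595 and 1494 in WT HDM, and 1470.1 and 1386 in TG HDM. With PBS, 4 or 5 members had fewer than 10 counts per library, which limits the folds of rare genes.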

Other observations

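Fold changes followed transcript length in some comparisons. Spearman's rho between the log2 fold change and transcript length, across genes that are not independent replicates, was -0.331 for TG HDM over TG PBS, -0.281 for TG HDM over WT HDM, -0.126 for WT HDM over WT PBS and 0.0129 for TG PBS over WT PBS. The median length of the 40 members was 3028.5 bases, and that of the genes tested in DDAH1-transgenic mice was 2990 bases.

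In their span, 17 of the 40 genes overlap a further RefSeq gene. The stretches of 50 bases shared with transcripts of other genes made up at least 10% in 5 members (Ccnb1, Mybl2, Pcna, Mcm7 and Cdc20) and at most 6.56% in the other 35.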
